A study of Mus musculus with 6 samples.

Results

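The 10 genes described here encode the proteins that copy and transcribe mitochondrial DNA and the nuclear factors that set how much of this machinery a cell makes. They are Polrmt, Tfam, Tfb1m, Tfb2m, Polg, Polg2, Ssbp1, Nrf1, Gabpa and Ppargc1a. They were chosen by name as a functional group, each represented by its brightest probe set with a single gene symbol, and all 10 were found among the 19938 genes with 1 symbol on the arrays. RNA came from AML-12, a mouse hepatocyte line. In 3 samples (siMnSOD) the cells stably carried a retroviral hairpin, built in pSUPER.retro.puro, against MnSOD, the mitochondrial superoxide dismutase encoded by Sod2. In 3 samples (siScramble) they carried a scrambled hairpin that recognises no gene in the same vector. Both groups were thus transduced and selected with puromycin, a single hairpin sequence stood for the knockdown, which was designed to be mild, and the labels trace the arrays to separate frozen batches of cells.

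Mitochondrial DNA is packaged into nucleoids and read by a single-subunit RNA polymerase, which needs TFAM to bend the promoter and TFB2M to open it. A separate replication machine, built around DNA polymerase gamma, copies it. All of these proteins are encoded in the nucleus, and their genes are classical targets of the transcription factors NRF1 and GABP, which the coactivator PGC-1alpha, the product of Ppargc1a, can stimulate in liver and other tissues rich in mitochondria. MnSOD works in the same compartment, the matrix, where it turns superoxide into hydrogen peroxide.

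Because GABP and NRF1 are members themselves, the promoters of the members are shown first. The lines give the 100 bases before the RefSeq start (GRCm38.p6), written 5′ to 3′ on the gene's strand. First come the 6 members that hold CCGGAAG, 1 spelling of the site recognised by GABP and other ETS factors. Then come the 3 members with the smallest p-values, none of which holds this spelling in the window. The remaining member, Nrf1, holds it in neither of its listed promoters and had an unadjusted p of 0.63 in limma. Whether this spelling goes with the p-values of the members was not tested. Capitals mark CCGGAAG or its reverse complement.
Polrmt (chr10:79746582-79746681, minus strand): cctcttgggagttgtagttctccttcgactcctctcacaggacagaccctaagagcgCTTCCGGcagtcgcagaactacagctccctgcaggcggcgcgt
Tfam (chr10:71238045-71238144, minus strand): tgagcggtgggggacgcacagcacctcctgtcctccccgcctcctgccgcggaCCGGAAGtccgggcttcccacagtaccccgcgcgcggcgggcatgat
Polg (chr7:79466274-79466373, minus strand): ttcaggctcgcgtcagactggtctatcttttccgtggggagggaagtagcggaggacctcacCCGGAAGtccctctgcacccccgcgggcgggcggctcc
Polg2 (chr11:106779538-106779637, minus strand): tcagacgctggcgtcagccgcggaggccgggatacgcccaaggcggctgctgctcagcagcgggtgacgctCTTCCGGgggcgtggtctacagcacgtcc
Ssbp1 (chr6:40471368-40471467, plus strand): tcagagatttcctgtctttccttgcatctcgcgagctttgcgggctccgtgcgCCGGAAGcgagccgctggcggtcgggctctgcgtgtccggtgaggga
Gabpa (chr16:84835024-84835123, plus strand): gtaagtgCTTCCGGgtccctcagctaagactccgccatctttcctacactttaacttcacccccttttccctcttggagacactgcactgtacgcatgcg
Tfb1m (chr17:3557756-3557855, minus strand): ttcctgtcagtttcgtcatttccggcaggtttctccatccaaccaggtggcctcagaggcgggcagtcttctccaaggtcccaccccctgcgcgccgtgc
Tfb2m (chr1:179546277-179546376, minus strand): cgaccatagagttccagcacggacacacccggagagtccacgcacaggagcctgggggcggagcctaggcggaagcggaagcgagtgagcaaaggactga
Ppargc1a (chr5:51567726-51567825, minus strand): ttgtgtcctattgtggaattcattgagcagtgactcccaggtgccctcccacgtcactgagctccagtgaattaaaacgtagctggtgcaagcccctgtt
Both strands were searched for CCGGAAG and for GCGCATG, a core of the NRF1 site, which share no overlapping match here. CCGGAAG was found in 6 of the 10 members, in 4.52% of all 32851 promoters of this length and in 7.28% of the 15614 measured genes with a promoter in the table. GCGCATG was found in no member, in 2.01% of all promoters and in 3.11% of those measured genes. The spellings and the window were settled after other spellings had been tried, so these shares do not test enrichment among the members. A match describes the sequence and does not show that a factor binds there, and the absence of these letters says nothing of sites spelled otherwise or lying elsewhere.

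The targeted gene was lower in the knockdown. Sod2 read 6.63, 6.92 and 5.71 on the log2 intensity scale in siMnSOD replicates 1, 2 and 3, and 7.95, 7.99 and 8.20 in siScramble. The groups did not overlap, and in limma Sod2 fell by 1.63 (SE 0.30) on the log2 scale (adjusted p = 0.037). The exact two-sided permutation test over the arrays gave p = 0.1, which no design of 3 against 3 can go below. The call of Sod2 was lost without siMnSOD replicate 1 (adjusted p = 0.1) or 2 (0.072) and without siScramble replicate 1 (0.12) or 2 (0.13). Replicate 3 stood apart in both groups: over all probe sets its Pearson r with its own group was 0.9762 to 0.9847, against 0.9921 and 0.9934 between replicates 1 and 2. Of the hepatocyte markers, Hnf4a, Apob, Krt8 and Krt18 read well over the background guide of 4.28 (log2). Alb and Ttr read under it, and Apoa1 (mean 4.73 in both groups) little over it. Hnf4a, a master regulator of hepatocyte genes, rose by 1.09 (SE 0.14, adjusted p = 0.013), a call lost without siMnSOD replicate 1 (0.065) or 2 (0.08) or siScramble replicate 2 (0.064). The keratin gene Krt8 had 0.59 with groups that did not overlap (adjusted p = 0.12, or 0.043 with the replicate block). No marker of leukocytes (6 measured), endothelial cells (5) or stellate cells and fibroblasts (6) was called, and 3, 5 and 3 of them read under the guide. The rest read over it, the brightest being Cd14 (mean 7.69 in siMnSOD and 7.42 in siScramble) and Col1a1 (5.89 and 5.84). The groups of Cd14 did not overlap (limma adjusted p = 0.36). The labels call the samples biological replicates without saying whether each had its own transduction, so the p-values here reflect only how far these samples spread. Each array averaged a whole culture, and fewer cells expressing a gene cannot be told apart from less RNA per cell.

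None of the 10 members changed at an adjusted p under 0.05 in limma, where 3.75% of all genes did (2.17% higher, 1.58% lower). At an unadjusted p under 0.05 there were 3 members, Ppargc1a, Tfb1m and Tfb2m, beside 16.7% of all genes. Of the 10 log2 differences 3 were positive and 7 negative, with a median of −0.09, against 0.01 over all genes. The groups did not overlap for 4 members, 1 higher and 3 lower in siMnSOD, beside 20.9% of all genes (11.1% higher and 9.73% lower). With the replicate number as a block 1 member passed, Ppargc1a, where 7.14% of all genes were called (4.02% higher, 3.12% lower). That fit takes equal numbers as pairs, which no label states. No member passed when any 1 of the 6 arrays was left out. The largest differences among the members were those of Ppargc1a and Tfb1m, in opposite directions.

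**Figure D1:**
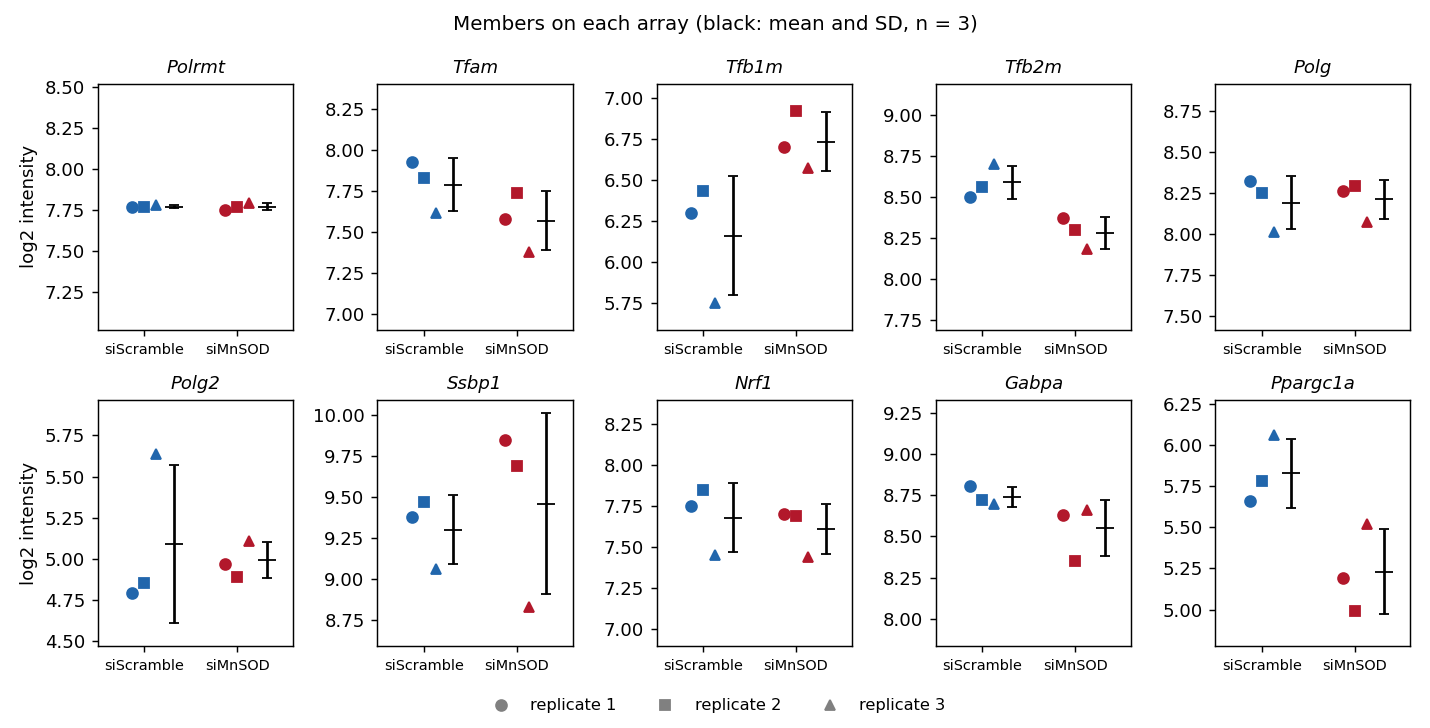
Log2 intensity (vertical axis, the same span of 1.5 units in every panel) of each member on the 3 siScramble (blue) and 3 siMnSOD (red) arrays, with replicate numbers as symbols and group mean and SD (n = 3) in black. The groups separate for Tfb1m, Tfb2m, Gabpa and Ppargc1a, and Polrmt reads 7.75 to 7.79 on every array.

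Polrmt, the mitochondrial RNA polymerase itself, had nearly the same reading on every array. It read 7.75, 7.77 and 7.79 in siMnSOD replicates 1, 2 and 3 and 7.77, 7.77 and 7.78 in siScramble. Its range over the 6 arrays was 0.04 on the log2 scale, and 0 of the 19938 genes had a smaller one. The siMnSOD level was 100% of control (95% interval 86.0 to 116% in limma, whose shared variance widens the interval of so steady a gene). Tfam, which packages mitochondrial DNA and activates its promoters, read 7.58, 7.74 and 7.38 in siMnSOD and 7.93, 7.83 and 7.62 in siScramble. The knockdown array with the highest Tfam reading lay over the lowest control, so the groups overlapped, although the siMnSOD array was the lower one within each of the 3 replicate numbers. The log2 difference was −0.22 (SE 0.14, adjusted p = 0.58), or 85.6% of control with an interval of 68.2 to 107%, and −0.13 without siMnSOD replicate 3.

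The paralogues Tfb1m and Tfb2m, both related to bacterial ribosomal RNA methyltransferases, differed in opposite directions between the groups. TFB1M methylates the small ribosomal RNA of the mitochondrion, and TFB2M acts at transcription initiation. Tfb1m read 6.70, 6.92 and 6.57 in siMnSOD and 6.30, 6.43 and 5.75 in siScramble. Every knockdown reading of Tfb1m was over every control reading, with a log2 difference of 0.57 (SE 0.20, adjusted p = 0.2), or 148% of control (interval 107 to 206%). Within replicate numbers 1, 2 and 3 the Tfb1m difference was 0.40, 0.48 and 0.82, and with the block its adjusted p was 0.052. Without siScramble replicate 3, the lowest control, the difference was 0.36 (adjusted p = 0.17). In replicates 1 and 2 alone, Tfb1m had a difference of 0.44 with an adjusted p of 0.038, in a fit that called 21.4% of all genes (11.8% higher, 9.69% lower).

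Tfb2m read 8.37, 8.30 and 8.18 in siMnSOD and 8.50, 8.56 and 8.70 in siScramble. All 3 knockdown readings were under all 3 controls, and the log2 difference was −0.31 (SE 0.11, adjusted p = 0.22), or 80.9% of control (interval 67.5 to 97.0%). It was −0.13, −0.26 and −0.53 within replicate numbers 1, 2 and 3. The other probe set of Tfb2m gave −0.30 (SE 0.14, adjusted p = 0.36). Neither paralogue passed over all genes.

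The 3 genes of the replication core had differences within their spread. Polg encodes the catalytic subunit of DNA polymerase gamma, and read 8.26, 8.29 and 8.07 in siMnSOD and 8.32, 8.25 and 8.01 in siScramble. The groups interleaved, and the interval of the siMnSOD level was 81.8 to 125% of control (log2 difference 0.01, SE 0.13, adjusted p = 1). Polg2, the accessory subunit that holds the polymerase on its template, read 4.97, 4.89 and 5.11 in siMnSOD and 4.79, 4.85 and 5.64 in siScramble. Its log2 difference of −0.10 (SE 0.23, adjusted p = 1) came with a positive difference within numbers 1 and 2 (0.18 and 0.04) and a negative one within number 3 (−0.53), and without siScramble replicate 3 it was 0.17.

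Ssbp1 encodes the protein that coats single-stranded mitochondrial DNA at the fork. Its brightest probe set read 9.85, 9.69 and 8.83 in siMnSOD and 9.38, 9.47 and 9.06 in siScramble, with a log2 difference of 0.15 (SE 0.27, adjusted p = 1). Replicate 3 was the lowest array in both groups, and lower still in the knockdown. The other probe set read 7.70, 7.45 and 6.83 in siMnSOD and 7.35, 7.68 and 7.72 in siScramble, a difference of −0.25 (SE 0.23, adjusted p = 0.83). The 2 probe sets of Ssbp1 thus had opposite signs, and no direction can be given for this gene.

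Among the 3 nuclear regulators, Ppargc1a had the largest difference. Ppargc1a, the inducible coactivator of mitochondrial biogenesis and, in liver, of gluconeogenesis, read 5.19, 4.99 and 5.52 in siMnSOD and 5.66, 5.78 and 6.06 in siScramble. All knockdown readings were under all controls, and replicate 3 was the highest of its group on both sides. The log2 difference was −0.60 (SE 0.17, adjusted p = 0.13), or 66.0% of control (interval 49.7 to 87.8%), and the exact two-sided permutation test of this member gave p = 0.1, the smallest possible. With the replicate block the SE was 0.10 and the adjusted p 0.037. The differences within numbers 1, 2 and 3 were −0.47, −0.79 and −0.54, and without siScramble replicate 3 or siMnSOD replicate 2 the difference was −0.49 and −0.48. The probe set not used read 3.99, 4.28 and 3.96 in siMnSOD and 4.42, 4.71 and 4.82 in siScramble. Its knockdown readings too were all under its controls. Since its siMnSOD mean was under the background guide, no fold between the groups is taken from it.

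Nrf1, the gene of a nuclear respiratory factor and not the stress factor gene Nfe2l1 that has shared the name, read 7.70, 7.69 and 7.44 in siMnSOD and 7.75, 7.85 and 7.45 in siScramble. The groups overlapped (log2 difference −0.07, SE 0.14, adjusted p = 1), with an interval of 75.0 to 121% of control. Gabpa, the DNA-binding subunit of GABP, read 8.63, 8.35 and 8.66 in siMnSOD and 8.81, 8.72 and 8.70 in siScramble. The groups were separated by a narrow gap, since siMnSOD replicate 3 lay just under siScramble replicate 3, and the log2 difference was −0.19 (SE 0.12, adjusted p = 0.58), or 87.4% of control (interval 71.7 to 106%). Without siMnSOD replicate 2 it was −0.10.

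**Figure D2:**
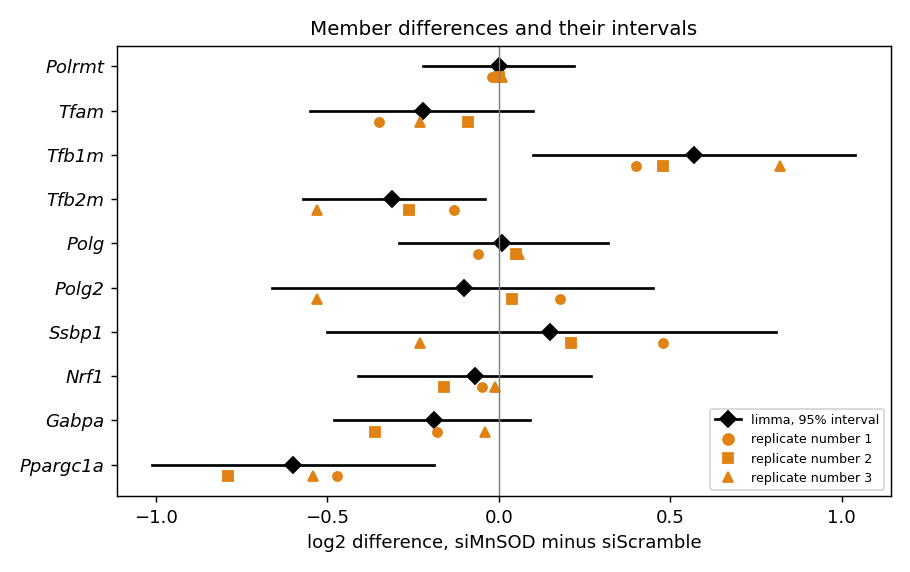
Log2 difference, siMnSOD minus siScramble (horizontal axis), of each member with its 95% limma interval (black) and the difference within each replicate number (orange). The intervals of Tfb1m, Tfb2m and Ppargc1a leave out 0 before adjustment over all genes, and the 3 differences of Ppargc1a lie between −0.79 and −0.47.

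For most members, as for most genes, replicate 3 stood apart from replicates 1 and 2. Replicate 3 lay outside replicates 1 and 2 on the same side in both groups for 8 of the 10 members, 5 below and 3 above, where 59.2% of all genes did so. By its brightest probe set, Ssbp1 was lower in replicate 3 than the mean of replicates 1 and 2, with a log2 difference of −0.94 in siMnSOD and −0.36 in siScramble. Polg, Nrf1, Tfam and Tfb1m were also lower there in both groups, and Polg2, Ppargc1a and, by at most 0.03, Polrmt were higher. The count depends on the probe set. The other probe set of Ssbp1 had −0.75 in siMnSOD and 0.21 in siScramble, and that of Ppargc1a, which lies near the background guide, −0.17 and 0.26. The other one of Tfb2m had replicate 3 below in both groups (−0.39 and −0.06). The difference between siMnSOD and siScramble had the same sign within all 3 replicate numbers for 6 members (1 up, 5 down), beside 42.4% of all genes.

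**Figure D3:**
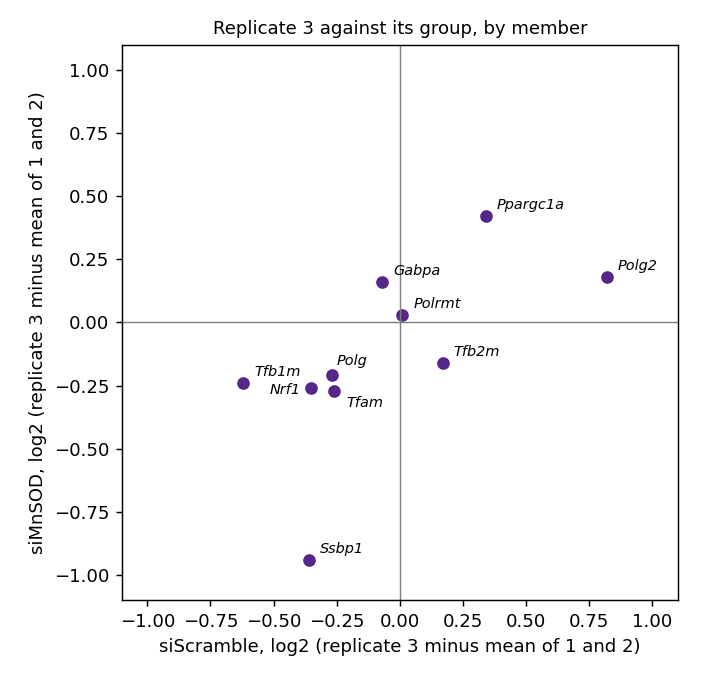
Log2 distance of replicate 3 from the mean of replicates 1 and 2, in siScramble (horizontal axis) and siMnSOD (vertical axis), 1 point per member. Points in the lower left or upper right moved the same way in both groups, and Tfb2m and Gabpa did not.

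Other genes that maintain mitochondrial DNA were listed by function, and 23 of 24 were measured. Of these 3 rose, 1 fell and 19 were not called, beside 2.17% of all genes higher and 1.58% lower, and the median log2 difference was −0.03. The nuclease and helicase Dna2 read 7.55, 7.47 and 7.53 in siMnSOD and 4.71, 4.96 and 5.16 in siScramble, a rise of 2.57 (SE 0.14, adjusted p = 0.001) that kept its call without any 1 array. The flap endonuclease Fen1 rose by 2.27 (SE 0.29, adjusted p = 0.012). Both enzymes also process nuclear DNA replication intermediates, and the 7 measured markers of dividing cells were higher in siMnSOD too. All 7 were higher on every siMnSOD array than on every control, beside 11.1% of all genes, and 3 were called. Their median was 1.91, and their summed intensity was 6449 to 7373 in siMnSOD and 914 to 2531 in siScramble. In siScramble, replicate 3 was over the mean of replicates 1 and 2 for Fen1 (by 1.05) and Dna2 (0.33). It was under that mean for every marker (−0.79 to −2.95) except Mcm2 (0.13). In siMnSOD the same distance was −0.25 for Fen1 and 0.02 for Dna2, and from −0.81 (Birc5) to 0.05 (Mcm5) for the markers. The part of cell division in the differences between siMnSOD and siScramble was not tested.

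The 2 remaining called genes were smaller in effect or more variable. Mpv17l2, an inner membrane protein linked to nucleoids and mitochondrial ribosomes, rose by 0.77 (SE 0.14, adjusted p = 0.033). Slc25a36, a carrier of pyrimidine nucleotides into mitochondria, read 9.15, 8.09 and 8.58 in siMnSOD and 9.84, 10.08 and 9.95 in siScramble, and fell by 1.35 (SE 0.26, adjusted p = 0.041). Without siMnSOD replicate 1 or 2 or siScramble replicate 1 or 2, Dna2 was the only gene of the list called higher, since Fen1 had an adjusted p of 0.051 to 0.082 and Mpv17l2 of 0.098 to 0.16. Mpv17l2 also lost its call without siMnSOD replicate 3 (0.079), and Slc25a36 lost its call without siMnSOD replicate 2 (0.11) or 3 (0.1), without siScramble replicate 1 (0.12) or 2 (0.16), and after centring arrays on their medians (0.056). With all probe sets tested, Mpv17l2 (0.059) and Slc25a36 (0.07) were not called. Twnk, the helicase that works with polymerase gamma at the mitochondrial fork and was singled out after its values were seen, had −0.34 (SE 0.12, adjusted p = 0.21), with every siMnSOD array under every control.

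**Figure D4:**
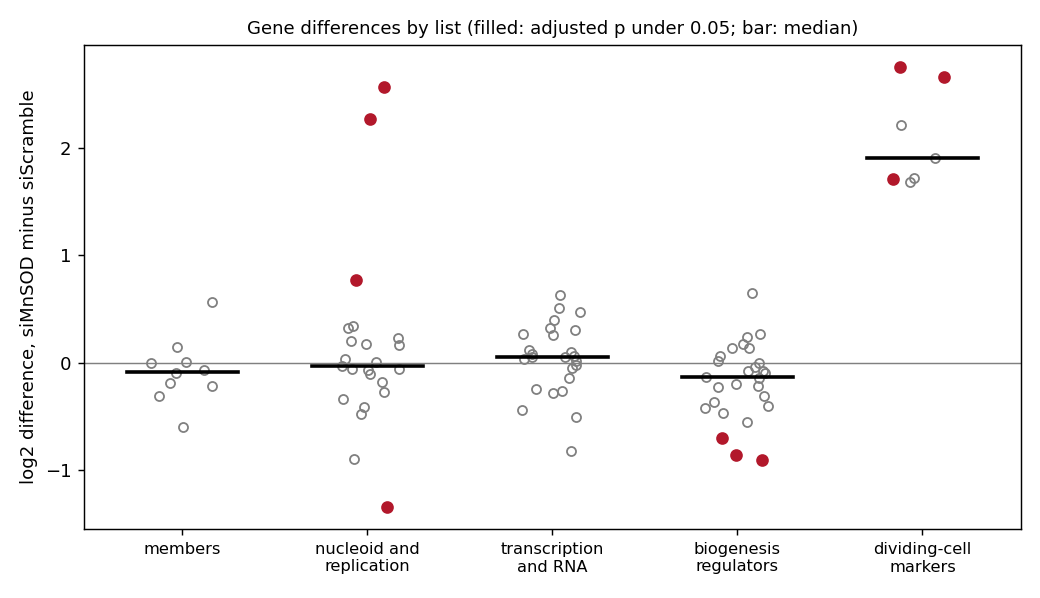
Log2 difference, siMnSOD minus siScramble, of every measured gene of the members, of 3 lists of related genes and of the dividing-cell markers (filled red points: adjusted p under 0.05; bars: medians). The medians of the first 4 groups lie between −0.13 and 0.05, and that of the dividing-cell markers at 1.91.

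None of the 25 measured genes (of 28 listed) for mitochondrial transcription, RNA processing and termination was called in limma (beside 3.75% of all genes), and 5 had an unadjusted p under 0.05 (beside 16.7%). The list median was 0.05. Trmt10c, a subunit of the mitochondrial RNase P that cuts transfer RNAs from the long transcripts, read 7.41, 7.16 and 7.08 in siMnSOD and 8.07, 8.29 and 7.74 in siScramble. All knockdown arrays were under all controls, and the log2 difference was −0.82 (SE 0.17, adjusted p = 0.052). Mtg1, a GTPase of mitochondrial ribosome assembly, had 0.63 (SE 0.15, adjusted p = 0.08). With the replicate block, which called 3.12% of all genes lower, 2 genes of the list were called lower, Trmt10c (adjusted p = 0.033) and Mterf3 (−0.51, adjusted p = 0.049), a repressor of mitochondrial transcription named after its values were seen. Trmt10c also passed after quantile normalization (0.031), with brighter genes only (0.043) and without siScramble replicate 3 (0.01), and Mtg1 without siMnSOD replicate 3 (0.035).

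Transcripts of the mitochondrial genome itself were represented by 2 of 15 genes, COX2 and ND3, and neither passed the test. COX2, a cytochrome oxidase subunit, read 12.67, 12.72 and 13.06 in siMnSOD and 12.66, 12.71 and 13.23 in siScramble, with a log2 difference of −0.05 (SE 0.19, adjusted p = 1, interval −0.50 to 0.40). ND3, a complex I subunit, read 12.15, 12.19 and 11.73 in siMnSOD and 11.99, 12.09 and 11.86 in siScramble, with 0.05 (SE 0.15, adjusted p = 1, interval −0.32 to 0.41). Replicate 3 was the highest array of both groups for COX2 and the lowest of both for ND3, but the other probe set of ND3 had replicate 3 highest in both (9.72 and 9.89, against 9.57 and 9.57 in siMnSOD and 9.43 and 9.51 in siScramble). That probe set had a log2 difference of 0.01 and the other one of COX2 −0.05. Neither gene had an unadjusted p under 0.05. These are steady RNA levels of 2 transcripts, and mitochondrial DNA copy number was not measured.

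Among 27 measured genes (of 29 listed) for coactivators, nuclear receptors and signalling to mitochondrial biogenesis, 3 fell and none rose, beside 1.58% of all genes lower and 2.17% higher. At an unadjusted p under 0.05 there were 8, beside 16.7% of all genes, and the list median was −0.13. Mef2a, a transcription factor that activates Ppargc1a in muscle, read 9.16, 8.96 and 9.05 in siMnSOD and 10.04, 10.09 and 9.75 in siScramble, and fell by 0.91 (SE 0.13, adjusted p = 0.017). Nfe2l1, a stress factor known above all for inducing proteasome genes, fell by 0.86 (SE 0.14, adjusted p = 0.028). Nrip1, a corepressor that holds down mitochondrial genes in fat and muscle, fell by 0.70 (SE 0.13, adjusted p = 0.04). The 3 called genes thus include an activator and a repressor. After centring arrays on their medians none of the 3 was called (adjusted p = 0.066 for Mef2a, 0.053 for Nfe2l1 and 0.09 for Nrip1), and with all probe sets tested Nfe2l1 (0.051) and Nrip1 (0.07) were not. None was called either without siMnSOD replicate 1 (0.062, 0.098 and 0.068 in the same order), siMnSOD replicate 2 (0.1, 0.15 and 0.19), siScramble replicate 1 (0.086, 0.12 and 0.11) or siScramble replicate 2 (0.088, 0.13 and 0.16). Nrip1 also lost its call without siMnSOD replicate 3 (0.085). Without siScramble replicate 3, 7 genes of the list were called lower. The share of all genes called in that fit was not counted, so the 7 cannot be read as particular to this list.

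Of the same list, the following genes were picked for their role after their values were seen and do not stand for all partners of Ppargc1a. The thyroid hormone receptor gene Thra had 0.65 (SE 0.20, adjusted p = 0.14), and Mef2a and Nrip1 are given above. The coactivator Ppargc1b had −0.04 (SE 0.19), the serum-responsive family member Pprc1 −0.13 (SE 0.19) and Esrra, the nuclear receptor through which PGC-1alpha acts on respiratory genes, −0.08 (SE 0.21), each with an adjusted p of 0.96 or 1. Their intervals reached −0.49, −0.58 and −0.57, so a difference of nearly the size of that of Ppargc1a lay within or close to each of them, and whether these 3 genes differ from Ppargc1a was not tested. Gabpb1, the partner subunit of GABPA, had −0.31 (SE 0.23, adjusted p = 0.73).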

How the data were processed

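RNA of 3 siMnSOD and 3 siScramble samples of AML-12 cells was hybridised to Affymetrix Mouse Gene 1.0 ST arrays, each sample on its own array. Values as deposited are linear normalized intensities, which the authors made with RMA per the submitters' processing notes, or scaled with MAS5 per the labels' design text. No version is stated in these sources. All values (100%) matched antilogs of rounded log2 values, a check that only the brightest values could have failed. Log2 was taken again. The platform annotation gave 1 symbol to 21789 of 35557 probe sets, and symbols were updated through Entrez identifiers (21698 matched). The brightest probe set stood for a gene, probe sets with several symbols (1621) were tested and not named, and 21559 rows entered a limma fit (version 3.58.1, R 4.3.3; group only, Benjamini-Hochberg over all rows, threshold 0.05). Counts refer to the 19938 genes with 1 symbol. No filter was used. The background guide is the 95th percentile of the mean log2 intensities of 1027 olfactory receptor genes. Errors are SEs of the fit or SDs (n = 3), and intervals are 95% intervals of limma before adjustment. The fit was tested on simulated data with independent noise on each array. These lacked the shift of replicate 3 shared by both groups, so they cannot show how the fit handles it.

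Members, lists and tests were chosen with earlier results of these data known. Named were Sod2, all members, called genes of each list (5 at most, or the 2 with the smallest p where none was called) and both genes of the mitochondrial genome. For samples sharing a number, deviations from the group mean had correlations of 0.30, 0.29 and 0.56, all over 0.1, so the replicate numbers of the titles were taken to pair the samples, and the alternative with a replicate block adds that number to the fit. Replicates 1 and 2 correlated more across numbers (0.47 and 0.41). The correlations thus set replicate 3 apart but cannot show how replicates 1 and 2 match, and no label explains the numbers. Results with the block or within replicate numbers rest on this pairing. Precision is limited by the number of arrays. Promoter sequences are from RefSeq (GRCm38.p6), all 10 members matched by symbol, and the motif spellings and the window were settled after other spellings had been tried.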

Additional observations from a re-analysis of the deposited data

How the results depend on the processing

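The statement that no member was called held under median centring, quantile normalization, the mean of probe sets, all probe sets tested, brighter genes only, an intensity trend in the prior and each array left out, with 0 higher and 0 lower. The exceptions were the replicate block (1 lower, Ppargc1a) and replicates 1 and 2 only, an alternative added after seeing the data (1 higher, Tfb1m, and 1 lower, Ppargc1a at −0.63). Over the left-out arrays Sod2 ranged from −1.88 to −1.27. Its call was lost with median centring (−1.54, adjusted p = 0.069) and with all probe sets tested (−1.63, adjusted p = 0.064). Over the left-out arrays, replication genes ranged from 1 to 3 called higher and 0 to 3 lower, transcription and RNA genes from 0 to 1 higher and 0 to 1 lower, and biogenesis genes from 0 to 1 higher and 0 to 7 lower. Lower replication genes numbered 0 with median centring and with all probe sets tested. Lower transcription and RNA genes numbered 1 with quantile normalization or brighter genes only and 2 with the replicate block. Lower biogenesis genes numbered 0 with median centring and 1 with all probe sets tested. The share of all genes called was counted only for the main fit, the replicate block and replicates 1 and 2 only. Under the other alternatives a moved count cannot be told from a change in calls over the whole table. With replicates 1 and 2 only, the higher and lower counts were 5 and 5 for replication, 5 and 4 for transcription and RNA, and 1 and 12 for biogenesis genes, in a fit that called 11.8% of all genes higher and 9.69% lower. With the block the hepatocyte markers called higher went from 1 to 2 (Krt8 added) and the dividing-cell markers from 3 to 4 (Birc5 added, 1.72, adjusted p = 0.023). The other marker lists had no call with or without it.

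Signs turned for 5 members and both mitochondrial transcripts, none of them called. Over the left-out arrays Polg ranged from −0.08 to 0.08, Polg2 from −0.25 to 0.17, Polrmt from −0.01 to 0.01, Ssbp1 from −0.05 to 0.47, Nrf1 from −0.19 to 0.01, COX2 from −0.17 to 0.13 and ND3 from −0.04 to 0.19. In replicates 1 and 2 only, Polg had −0.01, Polg2 0.11 and COX2 0.01. With median centring Polrmt had 0.08, Nrf1 0.01 and COX2 0.04, and with quantile normalization Polrmt had 0.0. The mean of its probe sets gave Ssbp1 −0.05, and its other probe set −0.25. The causes were not tested. Genes near background, Polg2 and the dimmer Ppargc1a probe set among them, lie nearest the background guide, which limits what could be seen there.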

Other observations

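Several genes of the replication list supply nucleotides for mitochondrial DNA or are known from its depletion in disease, and those given here were picked after their values were seen. The mitochondrial thymidine kinase Tk2 had a log2 difference of −0.27 (SE 0.15), the deoxyguanosine kinase Dguok −0.07 (SE 0.34), the p53-inducible ribonucleotide reductase subunit Rrm2b −0.41 (SE 0.14, adjusted p = 0.19) and the membrane protein Mpv17 −0.03 (SE 0.22). The succinyl-CoA ligase subunit genes Suclg1 and Sucla2 had 0.23 (SE 0.19) and −0.06 (SE 0.21), and Tymp was not analysed here. Dguok read 7.35, 7.41 and 6.42 in siMnSOD replicates 1, 2 and 3 and 7.42, 7.42 and 6.56 in siScramble, so that its values followed the replicate number. The pyrimidine carrier Slc25a33, a relative of Slc25a36, read 6.45, 6.34 and 6.52 in siMnSOD and 7.60, 7.59 and 6.82 in siScramble, with −0.90 (SE 0.22, adjusted p = 0.083). Every siMnSOD array was under every control for both carriers.

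The matrix protease Lonp1, which degrades TFAM that is not bound to DNA, had −0.48 (SE 0.19, adjusted p = 0.29), with overlapping groups. Lrpprc, which stabilises mitochondrial messenger RNAs, read 10.11 to 10.28 on all siMnSOD arrays and 10.13 to 10.17 on all controls. Its partner Slirp had 0.40 (SE 0.15, adjusted p = 0.23) with every siMnSOD array over every control, as had 11.1% of all genes. Lonp1, Lrpprc and Slirp were also picked after their values were seen.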
